A study of Mus musculus with 7 samples.

Results

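The genes described here are 10 members of the bone morphogenetic protein (BMP) pathway, taken by symbol from a table of 21813 genes that were above 0 in at least 1 library. Bmp2, Bmp4 and Bmp7 encode secreted ligands. Id1, Id2, Id3, Id4, Smad6, Bambi and Msx2 are genes known to respond to BMP, and were read with serum, after serum was withdrawn, under the BMP inhibitor Noggin and after it. All 10 were found in the table, and all 10 were above 0 in every library, so that all 10 were tested.

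BMP ligands bind pairs of serine/threonine kinase receptors, which phosphorylate the carriers Smad1, Smad5 and Smad9; these enter the nucleus with Smad4 and switch on target genes. Id proteins are helix-loop-helix proteins without a DNA-binding region that capture E proteins and so keep tissue-specific bHLH factors from working, and in mouse embryonic stem cells their induction by BMP, from serum or added, is known to act with LIF against differentiation. Inhibitors such as Noggin hold the ligand outside the cell, and BMP activity in the early embryo opposes neural fate and patterns the mesoderm.

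The cells were Bry-GFP mouse embryonic stem cells, 1 line in which, by its name, a GFP reporter marks the Brachyury gene, and all groups share that background. On day 0 (2 libraries) the cells were growing on mouse embryonic feeder cells in medium with 15% serum and LIF at 1000 U/mL. Day 2 (2 libraries) is after 48 h in serum-free medium, off the feeders, in suspension at 75000 cells/mL, as embryoid bodies. Day 4 (2 libraries) is after a further 48 h with 150 ng/mL Noggin, 25 ng/mL Wnt3a and 9 ng/mL Activin A, given to induce primitive streak. Day 6 (1 library) is after those factors were removed and basic FGF was given at 10 ng/mL for 48 h. Serum, LIF and feeders were withdrawn in the same step and cannot be told apart, nor can Noggin, Wnt3a and Activin A, which were given together. The sources used here do not say whether feeders were still in the day 0 cells when their RNA was taken.

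Libraries held roughly 2670000 (day 2 replicate 2) to 5570000 (day 0 replicate 1) reads, estimated from the steps in low values. Replicates of a day correlated at 0.975, 0.946 and 0.960 across 11800 genes, above every pair of libraries from different days (0.680 to 0.918). Markers of pluripotent stem cells had their highest summed log2 levels on day 0 (13.81 and 13.60) and their lowest on day 6 (10.99). Of that list Sox2 went the other way, from 9.64 and 9.21 (day 0) to 10.32 (day 6), and the other markers were lower on day 6 than on day 0. The median gene shifted by 0.14 (log2) from day 0 to day 2 and by less than 0.1 in the other comparisons. Feeder fibroblast genes are collagens, contractile genes and other matrix and surface genes of fibroblasts. Their values stand beside the results of the first step below.

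Levels throughout are log2 of 1 plus scaled reads, differences are log2 differences of those levels with the standard error (SE) or 95% interval of the fit, and folds are on the same scale and understate the change of low genes. A gene passed, and is said to rise or fall, where its Benjamini-Hochberg adjusted p over all 21813 genes in limma was below 0.05. Positions are those of GENCODE vM21 on GRCm38, in which all 10 members are protein-coding. In that annotation Id4 and Bmp4 each overlap annotated genes on the opposite strand, and the sources used here do not say whether the authors' counting used strand.

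Promoter sequence is shown for Id4, which passed in both later steps, and for Bmp4, which stood lower in every library after day 0 than in either day 0 library. Both are RefSeq windows of 250 bases up to the annotated start on GRCm38.p6, 5′ to 3′ on the strand of the gene. Capitals mark GGCGCC, a GC-rich element reported at BMP-responsive genes, and GTCT or its reverse AGAC, the short element bound by SMAD proteins. The Id4 window is chr13:48260866-48261115, plus strand, and the Bmp4 window chr14:46390670-46390919, minus strand.
Id4: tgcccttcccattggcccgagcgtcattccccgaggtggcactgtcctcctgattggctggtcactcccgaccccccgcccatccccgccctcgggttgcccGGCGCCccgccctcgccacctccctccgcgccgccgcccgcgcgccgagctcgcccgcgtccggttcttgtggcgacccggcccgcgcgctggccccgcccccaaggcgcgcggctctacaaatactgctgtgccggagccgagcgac
Bmp4: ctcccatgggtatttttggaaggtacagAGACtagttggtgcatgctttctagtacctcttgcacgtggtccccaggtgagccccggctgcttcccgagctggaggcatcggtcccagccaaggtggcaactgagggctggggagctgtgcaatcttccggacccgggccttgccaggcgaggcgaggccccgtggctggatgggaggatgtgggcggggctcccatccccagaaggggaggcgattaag
The Id4 window has a GC content of 75.6% and holds 1 GGCGCC and 0 copies of GTCT or AGAC. The Bmp4 window has a GC content of 63.2% and holds 0 GGCGCC and 1 AGAC. Searched on both strands, GGCGCC occurs in 9.59% of 32851 RefSeq promoter windows of this length and GTCT or AGAC in 82.9%, so the latter says little of a single window; a match is a description of the letters and not a bound site. The promoter table had entries for 6 of the 10 members.

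Across the 7 libraries the members did not move as 1 group. Id1 and Id3 were high with serum and low after it, Id4 was highest on day 6, Bmp4 was highest on day 0, and Bmp7 and Bmp2 were highest on day 4. By limma's F test over days 6 of the 10 members differed (Id1, Id3, Id4, Bmp4, Bmp7 and Bmp2), against 28.6% of all genes. Id2, Smad6, Bambi and Msx2 did not pass (adjusted p = 0.346, 0.829, 0.501 and 0.670).

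**Figure D1:**
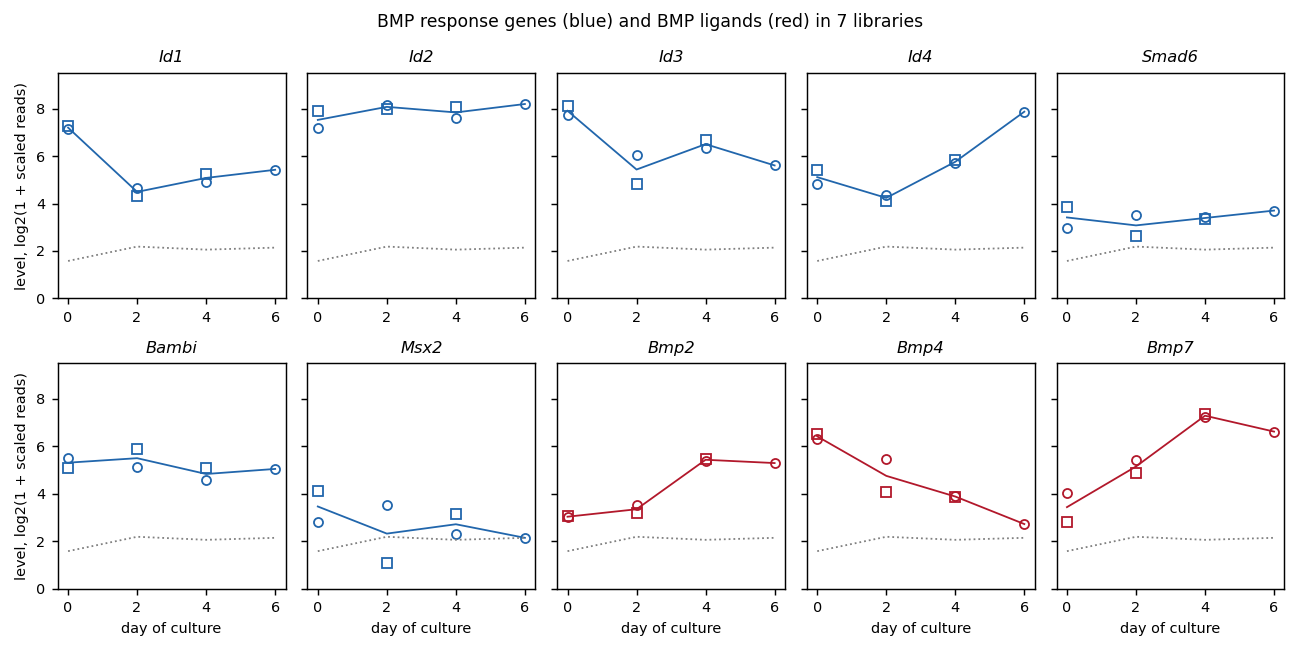
Log2 levels (log2 of 1 plus scaled reads, y axis) of the 10 members on days 0, 2, 4 and 6 (x axis), 1 panel a gene, each circle (replicate 1) or square (replicate 2) a library, the line the mean of each day and the dotted line the level of 3 reads. Id1 runs from 7.13 and 7.28 on day 0 to 4.65 and 4.34 on day 2, Id4 ends at 7.88 on day 6, and Bmp4 and Bmp7 run in opposite directions from day 0 to day 4.

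Withdrawal of serum, LIF and feeders was read from day 2 against day 0. Of the 10 members Id1 and Id3 fell and 0 rose, where 6.20% of all genes passed as lower and 5.76% as higher (12.0% in either direction). The median difference of the members was -0.61, against 0.05 over all genes tested.

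Id1, an inhibitor of differentiation that in stem cells responds early to BMP (chromosome 2, 152736251 to 152737410, plus strand), was at 7.13 and 7.28 (day 0), 4.65 and 4.34 (day 2), 4.92 and 5.25 (day 4) and 5.43 (day 6). The day 0 libraries lie well above all others, and no later library returned to them. From day 0 to day 2 it fell by 2.71 (SE 0.26), or 6.55-fold, with an adjusted p = 0.00237, the call with the smallest adjusted p among the members in this step. In reads the level stood on roughly 206 and 186 (day 0) and 21 and 14 (day 2).

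Id3, its close relative (chromosome 4, 136143497 to 136145755, plus strand), was at 7.72 and 8.11 (day 0) and 6.06 and 4.82 (day 2). The days do not overlap, but the day 2 replicates stand farther apart than those of Id1. The fall was 2.48 (SE 0.41), or 5.57-fold, with an adjusted p = 0.0136. Left out in turn, day 2 replicate 2 gave -1.86 and day 2 replicate 1 gave -3.10.

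These calls rest on few libraries. Without 1 of the 6 libraries of days 0, 2 and 4 in turn, the difference of Id1 ran from -2.87 to -2.56 and passed in 3 of 6 fits (adjusted p = 0.0425 to 0.0731), being lost without day 0 replicate 1, day 0 replicate 2 or day 4 replicate 1. Id3 passed in 1 of 6 such fits, that without day 2 replicate 1 (adjusted p = 0.0458 to 0.262). With genes at 0 in every remaining library kept in those fits, 1 member call was made over all 6 fits in place of 4.

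Id2 and Id4 did not follow Id1 and Id3 past the threshold. Id2 (chromosome 12, 25093799 to 25097140, minus strand), an Id protein with wide expression, was at 7.17 and 7.89 (day 0) and 8.15 and 8.01 (day 2), with a difference of 0.55 (95% interval -0.11 to 1.21, adjusted p = 0.272). Id4 (chromosome 13, 48261228 to 48266026, plus strand), known from neural precursors, was at 4.80 and 5.43 (day 0) and 4.36 and 4.12 (day 2), with a difference of -0.88 (-1.59 to -0.16, adjusted p = 0.117). Both day 2 libraries were thus higher than both of day 0 for Id2 and lower for Id4.

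Smad6, Bambi and Msx2, which passed in none of the 4 comparisons, stood on fewer reads than Id1 to Id3 on day 0. Smad6, an inhibitory SMAD induced by BMP (chromosome 9, 63953076 to 64022059, minus strand), was at 2.98 and 3.85 (day 0) and 3.52 and 2.64 (day 2), on roughly 4 to 16 reads over all libraries. Its difference was -0.34 with an interval of -1.56 to 0.89, which holds a fall of a log2 of 1 as well as no difference. Bambi, a receptor without a kinase that blocks BMP and activin signals, was at 5.51 and 5.11 (day 0) and 5.13 and 5.87 (day 2) (0.19, interval -0.69 to 1.07), and the days overlap.

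Msx2, a homeobox gene of limb, skull and neural crest that responds to BMP (chromosome 13, 53466884 to 53473074, minus strand), was at 2.79 and 4.13 (day 0) and 3.54 and 1.09 (day 2). The value of 1.09 is that of 1 read. The difference of -1.14 had an interval of -3.32 to 1.03 and was 0.08 without day 2 replicate 2, so the data do not give Msx2 a direction here.

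Among the ligands Bmp4, the BMP of the early epiblast and extraembryonic ectoderm (chromosome 14, 46383520 to 46390669, minus strand), was at 6.33 and 6.51 (day 0) and 5.45 and 4.06 (day 2). The day 2 libraries are both lower but far apart. The difference of -1.67 (SE 0.48) missed the threshold (adjusted p = 0.0722), and it was -0.97 without day 2 replicate 2 and -2.36 without day 2 replicate 1.

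Bmp7, a ligand of another subfamily (chromosome 2, 172868012 to 172940321, minus strand), was at 4.04 and 2.83 (day 0) and 5.40 and 4.90 (day 2), a difference of 1.72 (SE 0.43, adjusted p = 0.0508). Both day 2 libraries were above both of day 0, and the result sits at the threshold: without day 0 replicate 1 or 2 the difference was 2.33 or 1.11. Bmp2, the close relative of Bmp4 (chromosome 2, 133552159 to 133562885, plus strand), was at 3.02 and 3.04 (day 0) and 3.52 and 3.18 (day 2) (0.32, interval -0.49 to 1.12). Under 11 other settings Bmp7 passed in 5 and Bmp4 in 4, both of them where genes below a mean level of log2 of 11 were left out.

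Feeder fibroblast genes fell in the same libraries, 10 of 12 of them, with a median of -3.79, where 6.20% of all genes passed as lower. Dcn (-0.29) and Lum (-0.38) did not pass. The summed log2 level of the 12 genes was 14.25 and 14.45 (day 0), 10.52 and 9.97 (day 2), 8.79 and 8.69 (day 4) and 9.08 (day 6). Their part in the falls of Id1 and Id3 and in the lower values of Bmp4 was not tested. Immediate early genes of the serum response fell as well, 8 of 10, with a median of -4.42 and summed levels of 12.49 and 11.87 on day 0 against 8.84 and 8.88 on day 2. In bulk RNA fewer cells of a type and less RNA per cell cannot be told apart.

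**Figure D2:**
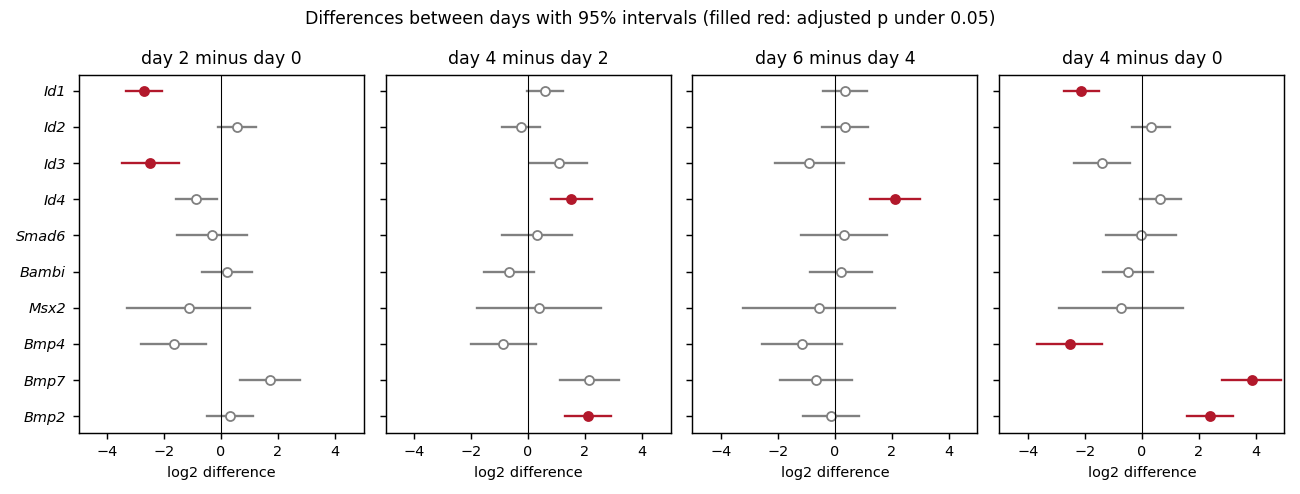
Log2 differences with 95% intervals (x axis) of the 10 members (y axis) in the comparisons of day 2 with day 0, day 4 with day 2, day 6 with day 4 and day 4 with day 0, with filled points where the limma adjusted p was below 0.05. Id1 lies at -2.71 and Id3 at -2.48 in the first comparison, and Bmp7 at 3.86 in that of day 4 with day 0.

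The step with Noggin, Wnt3a and Activin A was read from day 4 against day 2. Bmp2 and Id4 rose and 0 members fell, where 1.45% of all genes passed as higher and 2.13% as lower (3.59% in all). The median difference of the members was 0.49, against 0.00 over all genes.

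Bmp2 was at 3.52 and 3.18 (day 2) and 5.40 and 5.47 (day 4). The days do not overlap and the replicates lie close together. It rose by 2.09 (SE 0.34), or 4.25-fold, with an adjusted p = 0.0290. Id4 went from 4.36 and 4.12 to 5.70 and 5.83, a rise of 1.52 (SE 0.30), or 2.88-fold, with an adjusted p = 0.0489, just past the threshold. No call of this step held in any of the 6 fits that leave out 1 library of days 0, 2 or 4, in which Bmp2 had differences of 1.92 to 2.26 (adjusted p = 0.0914 to 0.197) and Id4 of 1.40 to 1.65 (adjusted p = 0.0977 to 0.226).

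Bmp7 went from 5.40 and 4.90 to 7.22 and 7.37, a difference of 2.14 (SE 0.43) as large as that of Bmp2 but with an adjusted p = 0.0518. Under 11 other settings of the filter, scale and fit Bmp7 passed in 7 (adjusted p = 0.00308 to 0.119), as did Id4 (0.0182 to 0.0826), and Bmp2 in 9 (0.0125 to 0.0535). With a constant of 10 in place of 1, Bmp7 passed and Id4 did not. Bmp4 was at 5.45 and 4.06 (day 2) and 3.89 and 3.87 (day 4) (-0.87, interval -2.02 to 0.27). All 4 libraries of days 2 and 4 thus held Bmp4 below its day 0 levels.

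With Noggin, Wnt3a and Activin A present, neither Id1 nor Id3 passed as lower. Id1 was at 4.65 and 4.34 before and 4.92 and 5.25 after, a difference of 0.59 (interval -0.04 to 1.22, adjusted p = 0.261), and both day 4 libraries were higher. Id3 was at 6.06 and 4.82 before and 6.34 and 6.67 after, a difference of 1.07 (0.08 to 2.06, adjusted p = 0.197). The lower ends of these unadjusted intervals lie at -0.04 and 0.08, so a net fall of a log2 of 1 from day 2 lies outside both. Without 1 library in turn the Id3 difference ran from 0.45 to 1.69. Every day 4 library had Noggin together with Wnt3a and Activin A, so the part of Noggin in these differences cannot be told.

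Id2 (-0.24, -0.90 to 0.43), Smad6 (0.31, -0.91 to 1.54), Bambi (-0.67, -1.54 to 0.21) and Msx2 (0.39, -1.78 to 2.57) did not pass. Their day 4 levels were 7.61 and 8.09 for Id2, 3.45 and 3.34 for Smad6, 4.59 and 5.08 for Bambi and 2.30 and 3.13 for Msx2. Bambi was lower in both day 4 libraries than in either of day 2, while Id2, Smad6 and Msx2 overlapped between the days.

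Day 6 against day 4 follows the removal of the 3 factors and the switch to basic FGF, with 1 library on day 6 that is assumed to vary like the others. Id4 was the member that passed, where 1.27% of all genes passed as higher, 3.18% as lower and 4.46% in all. It went from 5.70 and 5.83 to 7.88, a rise of 2.11 (SE 0.37), or 4.33-fold, with an adjusted p = 0.0357. The day 6 value is the highest of Id4 in any library, on roughly 211 reads against 42 and 69 on day 4. It missed the threshold when any 1 library of days 0, 2 or 4 was left out (2.05 to 2.18, adjusted p = 0.0596 to 0.171) and in a fit of days 4 and 6 alone (adjusted p = 0.255).

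The other Id genes did not pass. Id1 was at 5.43 (0.34, interval -0.42 to 1.11), Id2 at 8.20 (0.36) and Id3 at 5.61, below both day 4 libraries (-0.90, -2.11 to 0.31). In the day 6 library Id1 and Id3 were thus below their day 0 levels, which were 7.13 and 7.28 for Id1 and 7.72 and 8.11 for Id3. Removal of Noggin, Wnt3a and Activin A and the switch to basic FGF came together and cannot be told apart.

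Bmp4 was at its lowest, 2.72 on roughly 5 reads (-1.16, -2.56 to 0.24). Bmp7 was at 6.62 (-0.67, -1.94 to 0.60) and Bmp2 at 5.29 (-0.14, -1.13 to 0.85), so both kept levels above every library of days 0 and 2. Smad6 stood at 3.70, Bambi at 5.05 and Msx2 at 2.14, each within the range of its other libraries. The median difference of the members was 0.04, against 0.00 over all genes.

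Day 4 against day 0, which shares its libraries with the comparisons above, gives the net difference between stem cells in serum and aggregates after Noggin, Wnt3a and Activin A. Of the members 2 rose and 2 fell, where 11.3% of all genes passed as higher and 10.4% as lower (21.7% in all). Bmp7 rose by 3.86 (SE 0.43), or 14.5-fold, with an adjusted p = 0.00192, and Bmp2 rose by 2.40 (SE 0.34), or 5.29-fold, with an adjusted p = 0.00402. Bmp4 fell by 2.54 (SE 0.48), or 5.81-fold, with an adjusted p = 0.0123.

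Id1 fell by 2.12 (SE 0.26), or 4.36-fold, with an adjusted p = 0.00257. Id3 had a difference of -1.41 that missed the threshold (adjusted p = 0.0542) but passed under 7 of 11 other settings (0.00655 to 0.130) and in 2 of 6 fits without 1 library. Id4 had one of 0.65 (adjusted p = 0.186) and Id2 one of 0.32 (adjusted p = 0.485). Smad6 (-0.02), Bambi (-0.48) and Msx2 (-0.75) did not pass. In the fits that leave out 1 library of days 0, 2 or 4, Bmp2 passed in 5 of 6, Bmp7 and Id1 in 3 each and Bmp4 in 2. Without day 4 replicate 1 none of the 10 members passed, and 163 genes did.

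The make-up of the families was then compared per exon length, dividing the scaled reads of each gene by its annotated exon bases. Of the summed Id signal Id1 made up 39.5% and 33.8% on day 0 and 11.6% and 11.7% on day 2, and Id3 38.8% in both day 0 libraries and 20.5% and 10.7% on day 2. Id2 went from 19.4% and 24.6% to 65.1% and 74.5%. Id2 thus made up most of the Id signal on day 2, with its own log2 level not past the threshold.

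On day 4 the shares were 15.5% and 14.9% for Id1, 48.9% and 51.9% for Id2, 27.5% and 26.4% for Id3 and 8.12% and 6.79% for Id4. On day 6 Id4 made up 24.9% of the family, against 2.31% and 2.76% on day 0. The summed log2 level of the 4 genes ran from 8.32 (day 2 replicate 2) to 9.47 (day 0 replicate 2) and was 9.27 on day 6. The share of Id2 was highest on day 2, and that of Id4 on day 6.

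Among Bmp2, Bmp4 and Bmp7 alone, Bmp4 made up 85.8% and 91.9% (day 0), 58.9% and 42.5% (day 2), 11.3% and 10.3% (day 4) and 6.63% (day 6). Bmp7 went from 9.37% and 3.46% on day 0 to 67.5% and 69.2% on day 4 and 64.7% on day 6. The share of Bmp2 went from 4.86% and 4.65% to 21.3% and 20.6% and then 28.7%. The leading ligand by RNA among them was therefore Bmp4 in every day 0 library and Bmp7 in every library of days 4 and 6. Other ligands were left out of these shares. On day 6 Bmp5 stood at 6.23 and Bmp3 at 5.17, beside Bmp2 at 5.29 and Bmp7 at 6.62. The summed log2 level of Bmp2, Bmp4 and Bmp7 was 6.69 and 6.71 (day 0) and 7.67 and 7.80 (day 4).

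**Figure D3:**
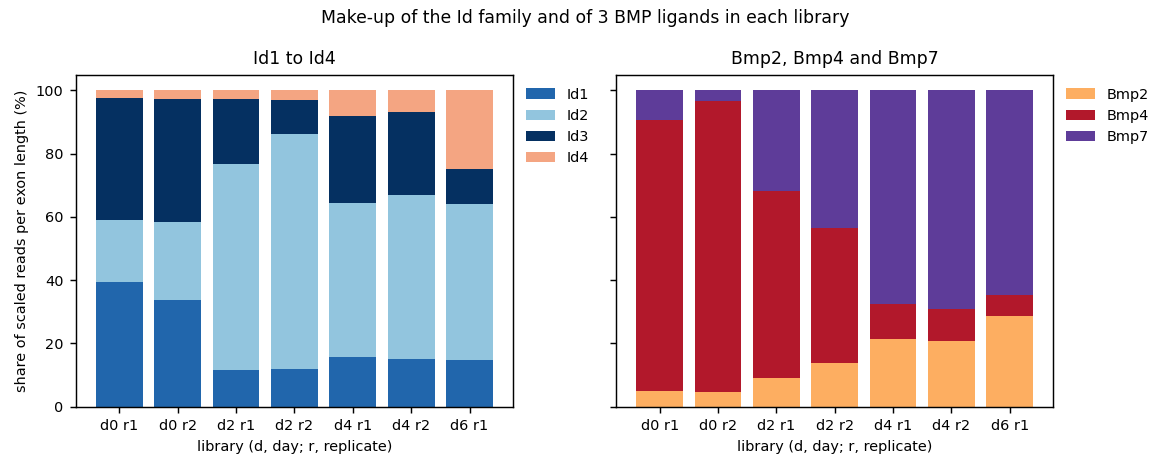
Share of each gene in the summed scaled reads per exon base (y axis, percent) of the 4 Id genes and of the 3 ligands, 1 stacked bar per library (x axis). Bmp4 fills 85.8% and 91.9% of the ligand bars on day 0 and 6.63% on day 6, and Id4 reaches 24.9% of the Id bar on day 6.

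The other genes of the pathway are given by role. Of 9 tested relatives of the ligands, 0 passed from day 0 to day 2, against 12.0% of all genes. Bmp5, of the Bmp7 subfamily, rose from day 2 to day 4 by 2.44 (limma adjusted p = 0.0349), from 1.81 and 1.48 to 4.14 and 4.04. Its day 0 and day 2 values are near the level of 3 reads, and on day 6 it stood at 6.23. From day 0 to day 4 3 of the 9 passed, where 21.7% of all genes did. Bmp5 rose by 2.45 (limma adjusted p = 0.00862). Bmp8a and Bmp8b fell, with differences of -2.74 and -2.23. Their reads went from roughly 16 and 16 for Bmp8a and 10 and 5 for Bmp8b on day 0 to at most 3 on day 4.

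Bmpr1a, the main type I receptor of BMP2 and BMP4, was between 9.35 and 10.56 in all libraries, and rose from day 4 to day 6 by 0.74, as did the activin and BMP receptor Acvr2a by 1.18. From day 0 to day 2 Acvrl1, an endothelial type I receptor, fell from 6.05 and 6.06 to 2.12 and 2.89, Acvr1 fell by 0.74, and Acvr2a rose by 0.67. In that step 3 of 10 receptors thus passed, against 12.0% of all genes, at a median of -0.44 over the list. Eng, a co-receptor of endothelium, fell from day 2 to day 4 by 1.82. Of the 10 receptors 1 passed in that step and 2 from day 4 to day 6, where 3.59% and 4.46% of all genes did. From day 0 to day 4 6 of 10 passed, where 21.7% of all genes did. Bmpr1a, Acvr2a and Acvr2b (2.24) rose in that comparison, and Acvrl1, Eng and Acvr1 fell. Of the 4 SMAD carriers 0 passed in a successive step, and Smad5 (0.61) and Smad4 (0.76) rose from day 0 to day 4, where 21.7% of all genes passed.

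Extracellular inhibitors held the largest differences of the pathway. From day 0 to day 2 5 of 13 fell and 0 rose, where 6.20% of all genes passed as lower and 5.76% as higher. The median was -0.01 against 0.05 over all genes. Grem1, which binds BMP2 and BMP4, went from 8.31 and 9.09 to 4.49 and 5.69. Fstl1 (-2.92), Nbl1 (-2.62) and Bmper (-2.33) also fell. These falls came in the same step as those of the feeder fibroblast genes above, whose part was not tested. Later Grem1, Nbl1 and Bmper stayed below their day 2 values. Fstl1 instead went from 9.09 and 8.71 (day 2) to 9.83 and 9.57 (day 4) and 10.70 (day 6).

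From day 2 to day 4 Chrd, the BMP inhibitor chordin of the node and notochord, rose from 2.91 and 1.09 to 6.87 and 6.20, and Cer1 rose from 2.25 and 2.98 to 7.76 and 7.70. The cells' own Noggin gene, Nog, was at 3.18 and 0 (day 2), 4.17 and 4.13 (day 4) and 5.33 (day 6) and did not pass in any comparison. Grem1 fell by 3.12. Of the 13 tested inhibitors 3 rose and 1 fell in this step, where 1.45% of all genes passed as higher and 2.13% as lower. The median of the list was 0.21. From day 4 to day 6 Twsg1 rose by 0.78 and Fst fell by 1.02.

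Inside the cell Smad7, the inhibitory SMAD that acts on BMP and activin signals alike, was at 8.06 and 8.28 (day 0), 6.48 and 6.42 (day 2), 5.63 and 5.41 (day 4) and 4.86 (day 6). It fell by 1.72 from day 0 to day 2 (SE 0.20, adjusted p = 0.00426) and by 2.65 from day 0 to day 4. Of the 6 fits without 1 library of days 0, 2 or 4, Smad7 passed in 1 for the former (adjusted p = 0.0447 to 0.0605) and in 6 for the latter. Its relative Smad6 showed no such fall above its spread. Skil, a SMAD co-repressor, fell from day 2 to day 4 by 0.71 and from day 4 to day 6 by 0.81.

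Of 10 further genes known to respond to BMP, Tbx3, a T-box factor of naive stem cells and limb, was the 1 that passed in the first 2 steps, falling by 2.46 and by 2.25. The shares of all genes that passed in those steps were 12.0% and 3.59%. From day 0 to day 4 Atoh8 (-2.03), Gata2 (-2.10) and Tbx3 (-4.71) fell and Hey1, also a Notch target, rose (1.67). From day 4 to day 6 0 passed, with a median of 1.19 over the list against 0.00 over all genes. That median rests on 1 day 6 library and in part on genes near the floor. In each day 4 library 5 of the 10 were under the level of 3 reads, as were 2 on day 6.

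**Figure D4:**
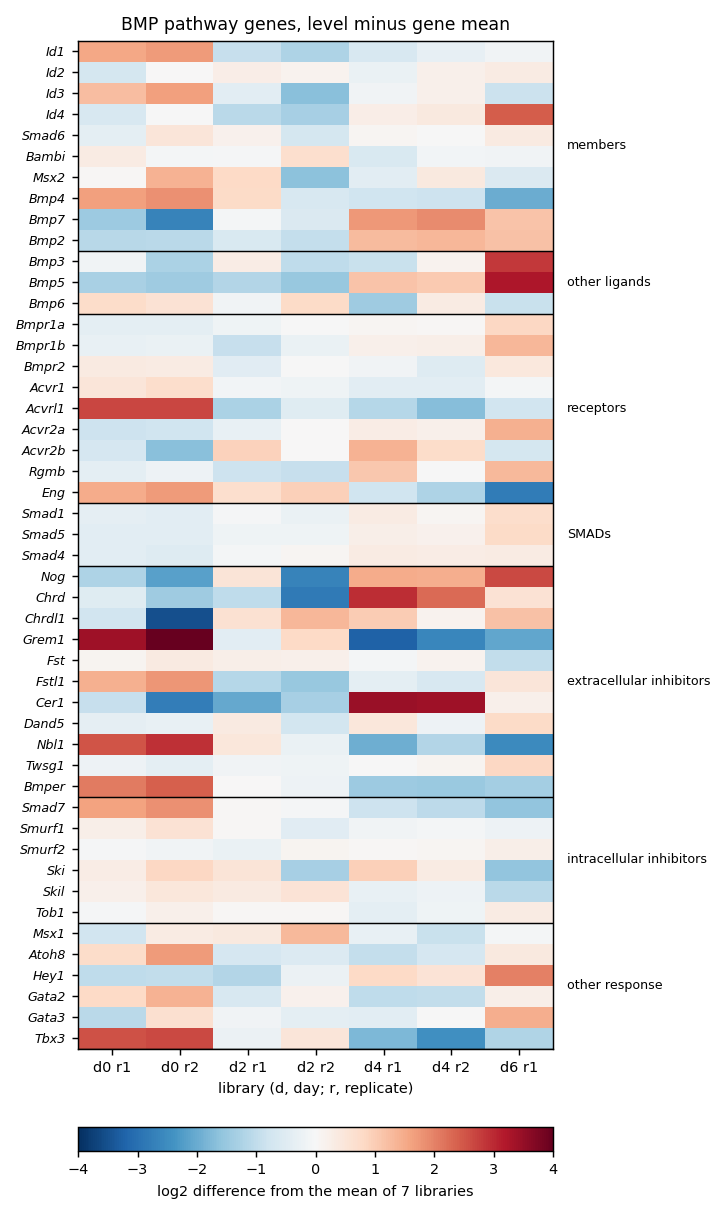
Log2 level minus the gene's mean over the 7 libraries (colour, limited to 4 in either direction) of 48 pathway genes with a mean log2 level of at least 2 (rows, grouped by role), 1 column per library. Grem1 is strongest on day 0 at 8.31 and 9.09, Cer1 on day 4 at 7.76 and 7.70, and Bmp5 on day 6 at 6.23.

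Genes whose log2 levels ran most like those of a member over the 7 libraries were sought among 10994 genes, with Pearson's r as a description, since the points share their libraries. The closest to Id1 were Csrp1 (0.997), Cd63 (0.995), Capn2 (0.993), Angptl2 (0.989) and Slc37a2 (0.989). To Id4 they were Vldlr (0.988), Gyg (0.988), Sh3bgrl (0.986), Nicn1 (0.985) and Clcn4-2 (0.982). Bmp4 was followed most closely by Adora2b (0.994), Rnasek (0.994), Col5a3 (0.993), Nadk (0.990) and Sec31a (0.989), and Bmp7 by Spock2 (0.993), Mdh1 (0.992), Dclk2 (0.987), Tmprss2 (0.986) and Gabre (0.986). Among the members themselves Id1 and Id3 had an r of 0.90, while Id1 and Id2 had one of -0.55.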

How the data were processed

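RNA-seq of polyadenylated RNA (stranded mRNA kit per the labels) gave 7 libraries. The authors deposited natural logs of 1 plus scaled reads, quantile normalised; scale and normalisation were inferred from the values. Per the submitters' processing notes, reads were placed on GRCm38; the sources used here name no aligner, counting tool or annotation. Values were divided by the natural log of 2. In the table, 103 rows of foreign sequence and 8674 genes at 0 in every library were left out. Tests used limma-trend with robust moderation (limma 3.58.1, R 4.3.3) on all 7 libraries with a mean for each day, which leaves 3 residual degrees of freedom; p-values were adjusted by Benjamini-Hochberg and read at 0.05. The labels call the replicates biological. On simulated data for day 2 against day 0 the fit recovered 31% of log2 changes of 1 and 85% of changes of 2. Rough reads come from steps in low values, followed up to 20 reads at most. Larger read numbers, and so the library totals, were extended from those steps in proportion and are extrapolations of normalised values. Alternatives were another constant, filters, centring, zeros as missing, no trend, a replicate block, fewer days and leaving out each library. All members and the genes past the threshold on each list, with up to 4 others, are named, except some that are not reported here. The members and the lists were chosen with earlier results of these data known.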

Additional observations from a re-analysis of the deposited data

How the results depend on the processing

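With 7 libraries and 3 residual degrees of freedom, the calls depend on single libraries and on the filter. For day 2 against day 0, day 4 against day 2, day 6 against day 4, day 4 against day 0 and any day, leaving out 1 library of days 0, 2 or 4 gave 0 to 691, 0 to 0, 0 to 295, 163 to 4152 and 0 to 4181 genes in place of 2609, 782, 972, 4731 and 6232, and, in the 4 comparisons, 0 to 2, 0 to 0, 0 to 0 and 0 to 5 members in place of 2, 2, 1 and 4. In these fits genes at 0 in every remaining library were left out, a choice made after both versions had been seen; keeping them gave 0 to 791, 0 to 554, 0 to 817 and 1144 to 3725 genes and 0 to 1, 0 to 0, 0 to 0 and 0 to 5 members. A count of 0 by limma stood beside genes with an unadjusted p under 0.05, 5502 of them without day 4 replicate 1 from day 0 to day 2.

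From day 0 to day 2, the members called were 4 with either filter on low levels (mean, or 2 libraries at the minimum) or with zeros as missing, all adding Bmp4 and Bmp7, and 1 with no trend, where 1609 genes passed. From day 2 to day 4 the genes called were 1422 and 1549 with the filters, 445 with no filter, 1204 with zeros as missing and 335 with no trend, and the members 0 with no filter and 1 with no trend; with a constant of 10 the 2 members were Bmp2 and Bmp7 in place of Bmp2 and Id4. Id3 joined the members called from day 0 to day 4, 5 in all, with that constant, either filter, zeros as missing, the median difference centred, without day 6 or in a fit of these days alone. From day 4 to day 6 the genes called were 2200, 2102, 1713 and 609 with the mean filter, the filter on 2 libraries, zeros as missing and no trend, and 0 in a fit of these days alone (3732 with an unadjusted p under 0.05); the members were 0 with no trend and 0 in that fit. With no trend 40.6% of these calls were lower, against 71.4%. With levels centred on the median difference, a setting added after the data were seen, as was leaving out day 6, the split from day 0 to day 2 was 945 higher and 1579 lower, against 1257 and 1352.

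A replicate block gave 2243, 568, 606 and 4295 genes and 3, 0, 0 and 4 members in the 4 comparisons, so Bmp2 and Id4 lost their later calls. Each replicate number goes with a code that its libraries share over the days in the labels, which do not say what the code stands for. Deviations of libraries with the same number correlated at -0.06 (days 0 and 2), -0.07 (days 0 and 4) and 0.22 (days 2 and 4), so not every pair moved together, and the numbers were not taken as a pairing; for days 2 and 4 a shared source cannot be told from the labels.

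Signs turned without 1 library only for members that had not passed. The ranges were, from day 0 to day 2, -0.78 to 0.10 for Smad6, -0.18 to 0.56 for Bambi and -2.37 to 0.0788 for Msx2; from day 2 to day 4, -0.48 to 0.00443 for Id2, -0.13 to 0.75 for Smad6 and -0.83 to 1.62 for Msx2; from day 4 to day 6, -0.0305 to 0.46 for Bambi; from day 0 to day 4, -0.0463 to 0.68 for Id2 and -0.46 to 0.41 for Smad6. The cause of these shifts was not tested. Without the lone day 6 library 2871, 1092 and 4951 genes and 4, 3 and 5 members passed in the 3 comparisons of the other days, and 4743 genes over any day. Smad6 and Msx2 have no value under the mean filter.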

Other observations

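Id proteins act by capturing E proteins, the partners of tissue-specific bHLH factors, and both groups were read from the same fit. Of the 3 E proteins Tcf12 was at 9.02 and 9.09 (day 0), 9.22 and 9.57 (day 2), 10.76 and 10.31 (day 4), and highest on day 6. It rose by 1.14 from day 2 to day 4 (limma adjusted p = 0.0304) and by 1.48 from day 0 to day 4. Tcf3, which encodes E12 and E47, rose by 1.11 from day 0 to day 4 but was at 7.26 on day 6, below every other library. Tcf4 fell by 0.63 from day 0 to day 2. Of the 3, 1 passed from day 0 to day 2, 1 from day 2 to day 4 and 2 from day 0 to day 4. In those comparisons 12.0%, 3.59% and 21.7% of all genes passed.

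Of 15 tested bHLH factors, 2 rose and 1 fell from day 0 to day 2, where 12.0% of all genes passed. From day 2 to day 4 3 rose (3.59% of all genes passed), and from day 4 to day 6 1 rose (4.46%). From day 0 to day 4 6 rose and 3 fell, where 21.7% of all genes passed. The median of the list was 1.44 in that comparison, against 0.00 over all genes. Neurod4, a neuronal factor, was listed at 0 throughout day 0 and stood at 2.73 and 3.18 (day 2), 5.33 and 5.30 (day 4) and 8.35 (day 6). Neurog2, a proneural factor, was listed at 0 in all libraries of days 0 and 2 and was at 3.45 and 3.65 (day 4) and 5.39 (day 6). The falls to day 4 were Hand2, Tcf15 and Twist1, factors of mesoderm and mesenchyme. Twist1 was at 5.39 and 5.56 (day 0), 3.98 and 4.26 (day 4) and 5.46 (day 6). Neurod4, Neurog2 and Id4 were thus all highest on the day 6 library, and whether they share cells was not tested.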
